A study of Canis lupus familiaris with 29 samples.

Results

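The 20 lymphomas labelled as B-cell among 29 canine lymphoma libraries were ranked by the RNA level of 1 gene, ENSCAFG00000014395, an Ensembl identifier for which the sources used here give no symbol. The 10 libraries with the most of its RNA form the high set and the 10 with the least form the low set. The sets were therefore chosen by a measured value, the FPKM of this gene, so the difference in this gene between the sets is a description. Its row was left out of the genes tested between the sets and of those tested against its own level. FPKM are fragments scaled to transcript length and to the mapped fragments of a library. As background, lymphomas arise from lymphocytes and keep much of the expression programme of the B or T cell they come from. Large-cell tumours of mature B lymphocytes are the commonest lymphomas of dogs, and tumours that share this immunophenotype can still differ in the genes they express.

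All dogs were Golden Retrievers, and the labels describe the material as lymphoma tumour. How the phenotype was assigned, and whether a dog had been treated, is not said in the labels. The high set came from 5 females and 5 males aged 3.7 to 14.0 years at diagnosis, 9 of them neutered. The low set came from 4 females and 6 males aged 2.0 to 10.6 years, 8 of them neutered. The 9 T-cell lymphomas of the series serve below as libraries that played no part in the ranking. Tumour tissue holds other cells beside the lymphoma cells, and in such bulk RNA fewer cells of a type and less RNA per cell cannot be told apart. Each library has its own combination of age at diagnosis, sex and neuter status. The libraries are therefore read as separate dogs, although the labels do not state it, and the p-values reflect spread among them. With a single library per dog, technical spread cannot be told apart from spread among dogs. Marker genes of B and T lymphocytes could not be read as a check of the label, because 0 of the 16382 identifiers matched a symbol.

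Among the genes that passed the filter on low values, the defining gene had the widest spread over these tumours. The SD of its log2(FPKM + 1) over the 20 libraries was 3.03, rank 1 of 11105 genes, against a median SD of 0.39. Whether its FPKM comes from 1 transcript, or includes reads shared with near-identical genes, is not known from the sources used here. In the high set it ran from 542 to 2024 FPKM with a median of 957 FPKM. There it stood between rank 41 and rank 110 among all genes of its library, and it took 0.105% to 0.369% of the summed FPKM. In the low set it ran from 3.17 to 526 FPKM with a median of 41.1 FPKM, between rank 115 and rank 9414.

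The cut between the sets does not fall at a break in the data. Library 2, the lowest of the high set, stood at 542 FPKM, and library 12, the highest of the low set, at 526 FPKM, a distance of 0.04 log2 units. Below library 12 came libraries 1 and 6 at 116 and 113 FPKM. That drop of 2.18 log2 units was the widest gap between neighbours in the ranking. Library 11 followed at 64.6 FPKM, library 9 at 51.0 FPKM and library 19 at 31.2 FPKM. The last 4 libraries, numbered 3, 5, 15 and 14, held 8.09, 5.93, 3.84 and 3.17 FPKM. So 9 of the 10 low libraries lay well apart from the high set, and library 12 was at the level of the high set.

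**Figure D1:**
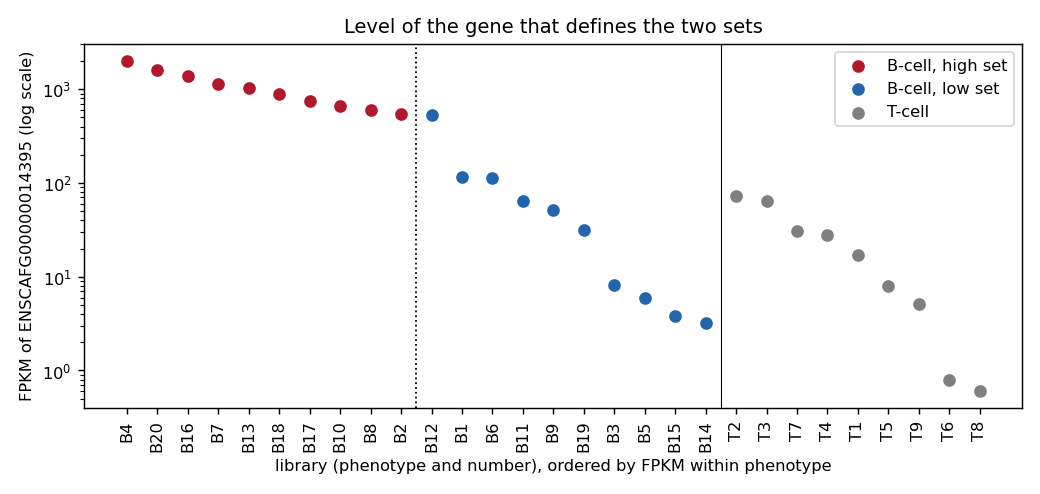
FPKM of ENSCAFG00000014395 (log scale) in each of the 29 libraries, ordered within phenotype; the dotted line is the cut between the high and the low set. The high libraries lie between 542 and 2024 FPKM, library 12 sits beside them at 526 FPKM, and the T-cell libraries lie between 0.602 and 71.8 FPKM.

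In T-cell lymphomas the gene lay within the range of the low set or below it. Their values ran from 0.602 to 71.8 FPKM with a median of 17.1 FPKM (n = 9). All 10 high libraries and 3 of the 10 low libraries (numbers 12, 1 and 6) lay above every T-cell library, while the other 7 overlapped with them. T-cell libraries 6 and 8, at 0.791 and 0.602 FPKM, were below every B-cell library.

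None of 10 labels and library measures differed between the sets at an adjusted p under 0.05. A hyphen in the spelling of the phenotype label, which varies among samples for a reason not given, was found in 2 of 10 high and 6 of 10 low libraries (Fisher's exact test, p = 0.170, adjusted over 10 measures 0.703). Age was 7.34 ± 3.61 years in the high and 8.06 ± 2.58 years in the low set (SD, n = 10 each; exact permutation test over 184756 arrangements, p = 0.617, adjusted 0.926). Summed FPKM was 487443 ± 41528 and 490358 ± 72587 (p = 0.929 by the same exact test, adjusted 1). Relative depth, read from the smallest steps of low FPKM and set to 1 in library 1, was 1.49 ± 0.293 and 1.41 ± 0.432 (exact permutation p = 0.648, adjusted 0.926). It ran from 0.930 to 2.21 over the 20 libraries. Absolute depth is unknown, so no counting interval can be given.

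The first comparison asked which other genes differ between B-cell tumours rich and poor in ENSCAFG00000014395. Of 11104 genes tested, 0 passed an adjusted p under 0.05 (0%; limma on log2(FPKM + 1), Benjamini-Hochberg), and the lowest adjusted p was 0.0769. At an unadjusted p under 0.05 there were 1741 genes, or 15.7% of those tested, against the 5% of a test with no difference. Of these, 1018 were lower (9.17%) and 723 higher (6.51%) in the high set. Genes are not independent of each other, so with no difference the share can still lie well away from 5%. The count of 1741 was not tested by permutation. Genes that cross this unadjusted limit are not called changed here. Their differences were small: 97.2% of the 1741 were under 2-fold, and only 36 higher and 13 lower genes were past it. The median log2 difference was 0.45 among the higher and -0.40 among the lower ones, and 0.04 over all genes tested.

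Over these genes together, 8.18% of the variance on the log2(FPKM + 1) scale lay between the sets (exact permutation test over 184756 arrangements, p = 0.068), which misses 0.05. Of 4 other settings and 20 fits without a single library, 2 passed 0.05: genes with a mean of at least 5 FPKM (8.83%, exact permutation p = 0.0413) and the fit without library 3 (10.03%, exact permutation p = 0.0237). The highest p was 0.134, without library 5 (7.52%, exact permutation). The 95% interval of a gene's log2 difference reached a median of 0.35 to either side, without adjustment over genes. Nearest neighbours did not follow the sets: 6 of 10 high and 4 of 10 low libraries had their closest match by Pearson r within their own set. Median Pearson r was 0.943 within the high set (45 pairs), 0.922 within the low set (45 pairs) and 0.934 across the sets (100 pairs).

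Whether any gene passed depended on the place of the cut and on single libraries. With the cut moved to the widest gap, 11 libraries against 9, 36 genes passed (0.324%), 23 of them higher and 13 lower in the 11 libraries. This cut was chosen after the data were examined. Of the 36 genes, 11 were at least 2-fold higher and 1 at least 2-fold lower. Leaving out the 2 libraries on each side of the original cut gave 6 genes. With the cut kept, 9 genes passed without library 2, 3 without library 9, and 2 each without library 12, 17 or 19. None passed without any other single library.

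The genes nearest to the threshold in each direction are given as the clearest examples, and none of the 4 passed it. They carry no symbol, so nothing can be said of what they do. ENSCAFG00000019827 was the single gene tested whose sets did not overlap (0.00901% of genes, with 0% on the lower side). It ran from 7.46 to 18.3 FPKM with a median of 11.4 FPKM in the high set. In the low set it ran from 1.20 to 7.28 FPKM with a median of 4.66 FPKM. Every high library thus stood above every low one. The means were 12.4 ± 4.03 and 4.55 ± 2.09 FPKM (SD, n = 10 each), a log2 difference of 1.32 ± 0.23 (SE; limma adjusted p = 0.0769). Over its alternatives, single libraries left out included, the limma adjusted p ran from 0.0253, without library 9, to 0.942, in libraries labelled with a hyphen.

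ENSCAFG00000013262 had the widest difference of the 4, with values that were graded within both sets. It was listed at 0 in 5 of 10 low libraries and in 0 of 10 high libraries. The high set ran from 4.10 to 82.6 FPKM with a median of 19.2 FPKM, and the low set from 0 to 12.2 FPKM with a median of 0.296 FPKM. The one overlap came from low library 9, at 12.2 FPKM, which stood above 5 high libraries. The log2 difference was 3.33 ± 0.60 (SE; limma adjusted p = 0.0769) with a pseudocount of 1 and 5.16 with a pseudocount of 0.1, since many values are at or near 0. Over the same alternatives its limma adjusted p ran from 0.0190, without library 9, to 0.321. Without counts, a value listed at 0 does not give the limit below which the gene was present.

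On the lower side, ENSCAFG00000014571 ran from 4.03 to 12.7 FPKM in the high set, with a median of 6.02 FPKM. In the low set it ran from 8.33 to 22.1 FPKM with a median of 13.9 FPKM. There 7 of 10 high libraries lay below every low one. The log2 difference was -0.97 ± 0.19 (SE; limma adjusted p = 0.120, from 0.0381 to 0.375 over the alternatives). ENSCAFG00000012478 ran from 1.03 to 9.85 FPKM with a median of 2.68 FPKM in the high set, and from 6.09 to 16.9 FPKM with a median of 9.60 FPKM in the low set. Again 7 of 10 high libraries lay below all of the low set. Its log2 difference was -1.46 ± 0.30 (SE; limma adjusted p = 0.120, from 0.0576 to 0.334 over the alternatives).

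The second comparison used the level itself in place of the sets, so that the distance between libraries counts. It rests on the same libraries and is not independent of the first. Here 17 of 11104 genes passed (0.153%; limma, Benjamini-Hochberg adjusted p under 0.05), 15 rising (0.135%) and 2 falling (0.018%) with ENSCAFG00000014395. The lowest adjusted p was 0.0175. The 15 rising genes gained 0.09 to 0.56 log2 units per log2 unit of the defining gene, with a median of 0.15. Their Pearson r with it, a description over 20 libraries, lay between 0.745 and 0.830. Mean levels of the 17 genes ran from 7.97 to 135 FPKM. In the comparison of sets all 17 differed in the same direction at an unadjusted p under 0.05. Over all genes, 43 had r over 0.7 and 19 had r under -0.7.

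Of the genes named above, the pair on the higher side passed in this fit. ENSCAFG00000019827 rose by 0.23 ± 0.04 log2 units per log2 unit (SE; limma adjusted p = 0.0191), and its r of 0.805 was the third highest of all genes. ENSCAFG00000013262 rose by 0.56 ± 0.10 (SE; limma adjusted p = 0.0279; r = 0.770). ENSCAFG00000014571 and ENSCAFG00000012478 had slopes of -0.15 ± 0.04 and -0.23 ± 0.05 (SE) and did not pass (limma adjusted p = 0.0718 and 0.0793).

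The 2 falling genes that passed were named after their values were seen. ENSCAFG00000017693 had the lowest r of all genes, -0.830. It ran from 32.1 to 47.1 FPKM with a median of 39.6 FPKM in the high set, and from 39.7 to 65.2 FPKM with a median of 55.1 FPKM in the low set. Its slope was -0.08 ± 0.01 (SE; limma adjusted p = 0.0279), a narrow but regular decline. ENSCAFG00000003821 ran from 44.5 to 109 FPKM with a median of 61.4 FPKM in the high set, and from 57.6 to 257 FPKM with a median of 85.8 FPKM in the low set. Its slope was -0.16 ± 0.03 (SE; limma adjusted p = 0.0279). For these genes the relation was tighter within the low set (r = -0.790 and -0.788, n = 10) and looser within the high set (r = -0.335 and -0.498). The defining gene spans 3.17 to 526 FPKM in the low set and only 542 to 2024 FPKM in the high set. The part of this range in r was not tested. With quantile normalization both falling genes stood at a limma adjusted p of 0.0578.

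**Figure D2:**
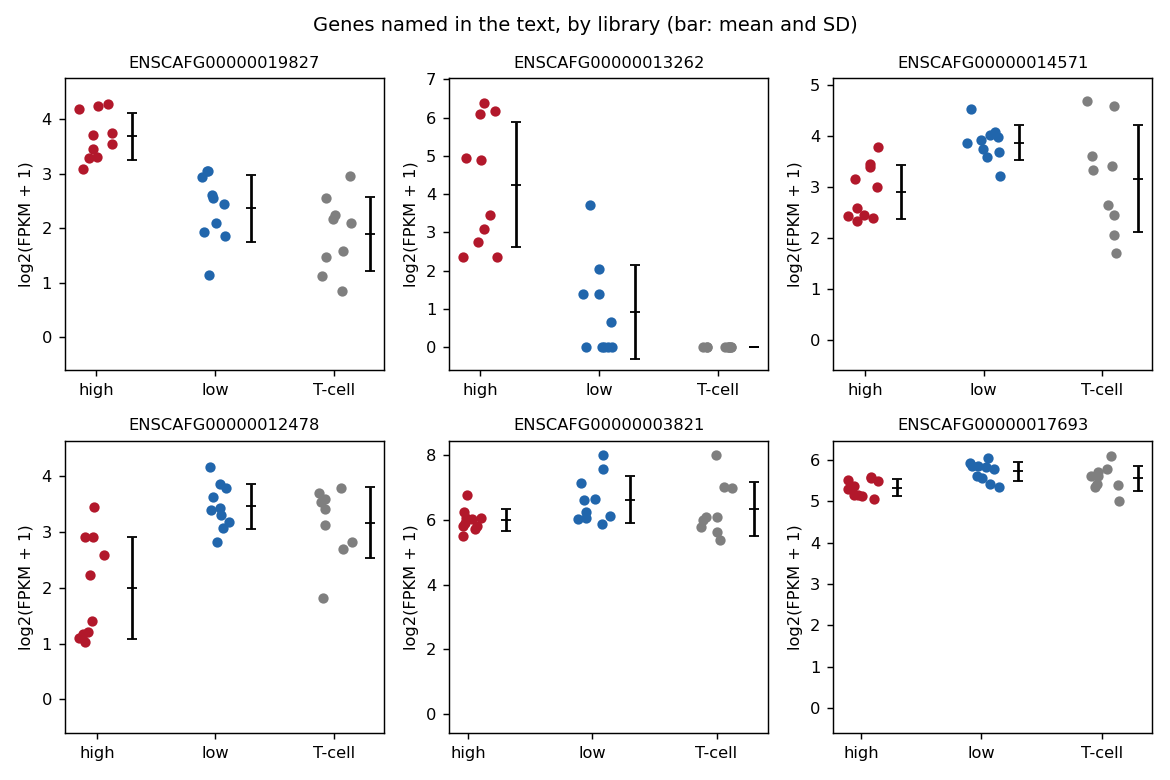
log2(FPKM + 1) of 6 genes in the high set, the low set and the T-cell libraries; points are libraries, bars are the mean and SD. For ENSCAFG00000019827 no low library reaches the high set, and ENSCAFG00000013262 lies at 0 in 5 low and all 9 T-cell libraries.

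The count of 17 was fragile. It was 15 to 21 without library 1, 2, 3 or 8. It fell to 1 without library 5 or 15, 2 without 16, 3 without 18, 4 without 4 or 17, 8 without 10, 9 without 12, 10 without 13, and 11 without 11 or 20. It rose to 26 without library 6, 36 without 7 or 19, 45 without 9 and 51 without 14. With age in the model 0 genes passed, and with label spelling 11. The slope of ENSCAFG00000019827 with age in the model was 0.226 ± 0.041 (SE; limma adjusted p = 0.0511), beside 0.225 ± 0.037 without age. ENSCAFG00000013262 had 0.543 with age, beside 0.561. ENSCAFG00000003821 had -0.156, beside -0.165, and ENSCAFG00000017693 had -0.079, beside -0.080. For these last genes, ENSCAFG00000013262 included, the limma adjusted p with age was 0.105. Age itself went down as the gene went up, with Pearson r = -0.34 (permutation p = 0.144) and Spearman rho = -0.40 (permutation p = 0.0817), adjusted 0.566 and 0.386 over 10 relations. Without libraries 14 and 15, farthest from the median level, r was -0.28, and within the high and low set it was -0.54 and -0.57. The part of age in the result was not tested further.

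Abundant genes leaned one way. Among the 1719 genes with a mean over 50 FPKM, 341 were lower (19.8%) and 72 higher (4.19%) in the high set at an unadjusted p under 0.05, beside 9.17% and 6.51% of all genes tested. Genes with a mean of 2 FPKM or less leaned the other way, with 26 lower and 66 higher of 1185. Between them lay the genes over 2 and up to 10 FPKM, with 145 lower and 222 higher of 3204, and those over 10 and up to 50 FPKM, with 506 lower and 363 higher of 4996. Leaving out single libraries kept the abundant genes on the lower side, at 268 to 380 lower and 46 to 101 higher.

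That lean depended on how the libraries were scaled to each other. With quantile normalization, which gives every library the same distribution of values, the abundant genes numbered 209 lower and 150 higher. In the fit on the level itself, quantile normalization turned it round, at 108 falling and 189 rising against 304 and 95 as deposited. Median-of-ratios scaling kept it, at 345 lower and 58 higher between the sets. Over all 11104 genes, those falling and rising with the level at an unadjusted p under 0.05 numbered 985 and 878 as deposited, 690 and 1010 with quantile normalization, and 866 and 889 with median-of-ratios scaling. The 10 most abundant genes of a library took 9.01% ± 1.08 of the FPKM in the high and 8.35% ± 1.32 in the low set (SD, n = 10 each; exact permutation p = 0.232, adjusted 0.703). Their part in the lean was not tested.

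**Figure D3:**
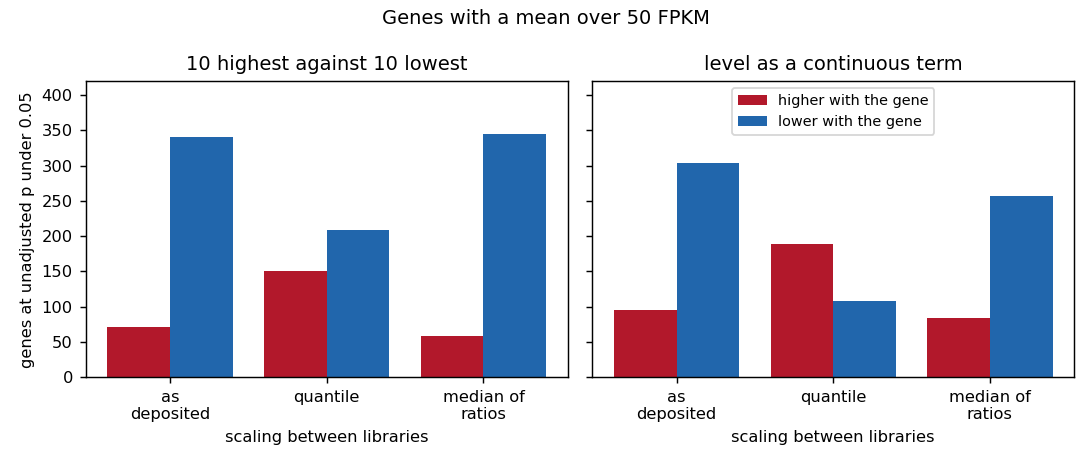
Number of genes with a mean over 50 FPKM that were higher (red) or lower (blue) with the defining gene at an unadjusted limma p under 0.05, in values as deposited and under 2 other scalings. As deposited, 341 were lower and 72 higher between the sets; with quantile normalization the level fit gave 108 lower and 189 higher.

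The main axes of variation among B-cell tumours were then set beside the gene. Principal component 1, with 27.2% of the variance, did not follow it, with r = 0.07 (permutation p = 0.762, adjusted 0.775 over 10 relations). Component 2, with 12.8%, did, with Pearson r = 0.63 (permutation p = 0.00144, adjusted 0.0144) and Spearman rho = 0.64 (permutation p = 0.00301, adjusted 0.0301; 100000 permutations, both directions). The sign of a component is arbitrary and was set to be positive. Without libraries 14 and 15 r was 0.67. Within the high set it was 0.31 and within the low set 0.53. In libraries labelled with a space it was 0.46. In those with a hyphen, 2 of the high and 6 of the low set, it was 0.82. Libraries 5 and 3, the lowest on component 2, both carry the hyphen.

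Low library 5 stood far out on component 2, at -62.7, with the next lowest, library 3, at -24.3. Without library 5, on the same scores, r was 0.58. When the components were computed anew without it, r was 0.34 for component 2 and 0.68 for component 3, so the axis that goes with the gene changes its rank with that library. For component 3 over all 20 libraries r was 0.10 (permutation p = 0.690, adjusted 0.775).

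**Figure D4:**
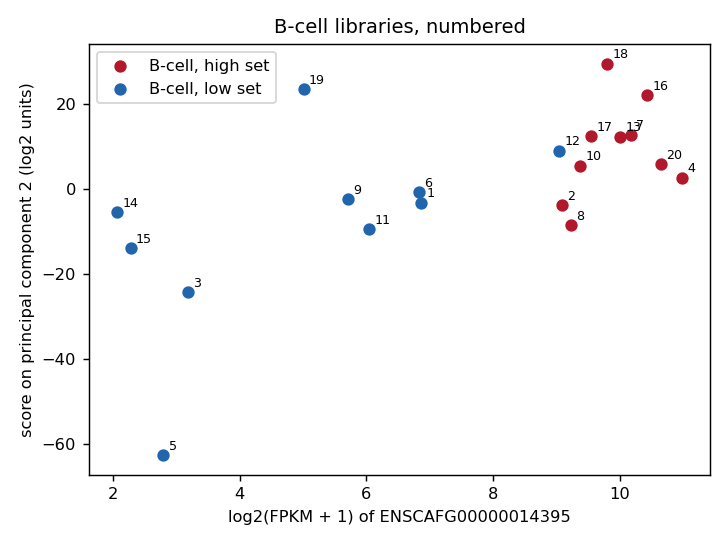
Score on principal component 2 of the 20 B-cell libraries (numbered) against log2(FPKM + 1) of ENSCAFG00000014395, which was left out of the components; Pearson r is 0.63. Library 5, at -62.7, lies farthest from the others.

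Genes that separate T-cell from B-cell lymphoma were read as a measure of the other lymphocyte class. The lists were taken from the comparison of all 29 libraries, with limma adjusted p under 0.05 and at least 2-fold change, which placed 7.04% of genes on the T-cell side and 3.62% on the B-cell side. Of 716 genes higher in T-cell tumours that could be tested between the sets, 80.4% had a positive difference, beside 55.5% of all genes. Their median log2 difference was 0.19, beside 0.04. With quantile normalization these were 72.3% and 0.12, beside 50.7% and 0.00. At an unadjusted p under 0.05, 54 were higher (7.54%, beside 6.51% of all genes) and 5 lower (0.698%, beside 9.17%), and 0 passed after adjustment. The mean log2(FPKM + 1) per library was taken over all 813 T-cell genes, those not tested between the sets included. This mean was 2.52 ± 0.352 in the high and 2.34 ± 0.368 in the low set (SD, n = 10 each, exact permutation p = 0.281, adjusted 0.703). It ran from 2.15 to 3.15 and from 1.86 to 2.96, so the sets overlapped over most of their range.

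The 417 genes higher in B-cell tumours, counted without the defining gene, lay on both sides. Their median log2 difference was 0.01, with 38 higher (9.11%, beside 6.51% of all genes) and 46 lower (11.03%, beside 9.17%) at an unadjusted p under 0.05. Median-of-ratios scaling gave a median of -0.01. Their mean log2(FPKM + 1) was 5.14 ± 0.169 and 5.09 ± 0.133 (exact permutation p = 0.480, adjusted 0.926). Of the 17 genes that passed with the level, 3 were among the 417 B-cell genes (0.719%, beside 0.153% of all genes) and 0 among the 716 T-cell genes. With the mean of the T-cell genes in the model 169 genes passed with the level, in place of 17, and with relative depth in it 52 passed. The mean of the T-cell genes takes in the 716 that are themselves among the genes tested. Its list was drawn in part from these same libraries. What lies behind the rise to 169 was not tested.

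ENSCAFG00000019827 and ENSCAFG00000013262 were themselves lower in T-cell tumours. ENSCAFG00000019827 ran from 0.813 to 6.79 FPKM with a median of 3.28 FPKM in T-cell libraries, below every high library and overlapping with the low set. Its log2 difference, T-cell minus B-cell, was -1.13 ± 0.31 (SE; limma adjusted p = 0.00461). ENSCAFG00000013262 was listed at 0 in all 9 T-cell libraries. The other 4 named genes were not told apart between the phenotypes, with limma adjusted p from 0.331 to 0.951.

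The 9 T-cell lymphomas were not used to form the sets and give a separate look at the same relation. Within the T-cell libraries 394 of the 11104 genes passed with the level of ENSCAFG00000014395 (3.55%; limma, Benjamini-Hochberg adjusted p under 0.05), 304 of them rising. This count rested on single libraries: it was 0 without T-cell library 2, 3 or 7, 9 without library 9, 28 without library 6, 247 without library 1 and 688 without library 5. In B-cell tumours 985 genes had a falling slope (8.87%) and 878 a rising one (7.91%) at an unadjusted p under 0.05. Of the falling ones 67.2% also had a negative slope in T-cell tumours, beside 45.2% of all genes. Of the rising ones 57.7% had a positive slope there, beside 54.8% of all genes. Genes are not independent of each other, and these shares carry no test. Of the 15 rising genes past the threshold, 8 had a positive slope in T-cell libraries. ENSCAFG00000013262, among the 15, was at 0 in all 9 T-cell libraries and could show no slope there. The filter on low values used B-cell libraries only, so genes silent in T-cell tumours can enter these counts.

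For ENSCAFG00000019827 the slope in T-cell tumours was 0.22 ± 0.09 log2 units per log2 unit (SE; limma adjusted p = 0.197), close in size to the 0.23 in B-cell tumours. The test of the difference between these slopes gave -0.01 (limma adjusted p = 0.983). For ENSCAFG00000014571 the slope in T-cell tumours was -0.42 ± 0.10 (SE; limma adjusted p = 0.054) against -0.15 in B-cell tumours, a difference of -0.27 (limma adjusted p = 0.0937). ENSCAFG00000012478 had -0.17 ± 0.09 in T-cell tumours (SE; limma adjusted p = 0.327). ENSCAFG00000003821 and ENSCAFG00000017693 had -0.05 ± 0.13 and -0.07 ± 0.06 there (SE; limma adjusted p = 0.881 and 0.540).

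Across genes, slopes on the defining gene did differ between the phenotypes. An interaction term of phenotype and level passed for 848 genes (7.64%; limma, Benjamini-Hochberg adjusted p under 0.05). It passed for 375, 472 and 555 genes without T-cell library 2, 3 or 7. The defining gene spans unlike ranges in the phenotypes, and in T-cell libraries it went along with the mean of the B-cell genes. The part of either in this count was not tested.

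A last model asked if females and males show another difference between the high and low set. The interaction of set and sex gave 0 genes (limma, lowest adjusted p = 0.999), and 403 were at an unadjusted p under 0.05, or 3.63%. The same 0 was found with quantile normalization and without each single library.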

How the data were processed

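The submitters' processing notes name the build CanFam3.1 and the tools TopHat 1.4.1, Cuffdiff and FastQC 0.11.2. The sources used here state no options, annotation release or scaling steps. The authors deposited FPKM per Ensembl gene, with no counts. Of 78 columns, 29 carry a sample title, and the other 49 were not used. Identifiers could not be paired with symbols, so marker lists, sequences and positions were not analysed here.

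B-cell libraries, numbered in accession order, were ranked by FPKM of ENSCAFG00000014395. Genes reaching 1 FPKM in 5 or more of the 20 libraries were tested as log2(FPKM + 1) with limma 3.58.1 (R 4.3.3; variance trend, robust moderation, Benjamini-Hochberg over all genes, both directions). This pseudocount understates changes of low genes. Of the 11104 genes, 9 reached 1 FPKM in 1 set only. Single values were compared by exact permutation, correlations by 100000 permutations, with Python 3.11.15, numpy 2.4.6 and scipy 1.17.1. Relative depth came from ratios of FPKM under 0.2, where the most frequent ratio between libraries fitted within 0.05 log2 units in 100% of 812 ordered pairs. The limma fits on the sets and on the level, and the reading of relative depth, were tried on simulated data with independent genes. Named genes were the 2 identifiers in each direction with the largest difference past the threshold, or, as none passed, the smallest p at a mean of at least 1 FPKM. The members and lists were chosen with earlier results of these data known. Alternatives covered pseudocount, filters, scaling, model, covariates, label spelling, neutered dogs and single libraries. The cut at the widest gap, the strata of expression and the test of slopes between phenotypes were added after the data were examined.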

Additional observations from a re-analysis of the deposited data

Results flagged for a closer look

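Of 34 groups of 10 libraries examined, 4 had a library standing apart from the rest by Dixon's gap, which chance does in about 1 in 20. High library 8 had a relative depth of 2.21, with the next at 1.57, and it scored -42.6 on principal component 3, with the next at -6.23. Low library 1 came from a dog aged 2.0 years, with the next youngest at 6.6 years. Low library 5 had a summed FPKM of 677096, with the next at 510269. Without library 5, 1 gene in place of 17 passed with the level of ENSCAFG00000014395, as also without library 15.

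The slope on ENSCAFG00000014395 was not the same in T-cell as in B-cell tumours for 848 genes (7.64% of 11104; interaction term in limma over 29 libraries, Benjamini-Hochberg adjusted p under 0.05). The lowest adjusted p was 1.16e-06. Without T-cell library 2, 3 or 7 the count was 375, 472 and 555, and without any other single library 640 to 1159. The defining gene spans a different range in the phenotypes, from 0.602 to 71.8 FPKM in T-cell and from 3.17 to 2024 FPKM in B-cell libraries, and its part in this count was not tested.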

How the results depend on the processing

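No paired analysis was made, because nothing in the labels pairs a library of the high set with one of the low set. Between the sets, 0 genes passed in 16 of 18 alternatives; 6 passed without the 2 libraries on each side of the cut and 36 with the cut at the widest gap, and 0 to 9 with each library left out. At an unadjusted p under 0.05, 249 genes were higher and 345 lower in the libraries labelled with a hyphen, and 572 lower in those with a space. Each of these holds fewer libraries. With the level as a continuous term the count of 17 became 26 with quantile normalization, 208 with array weights, 52 with relative depth, 169 with the level of T-cell genes, 39 with ranks and 11 with label spelling in the model. It became 0 with age in the model, 0 at an adjusted p under 0.01, 2 with a space and 0 with a hyphen in the label, 1 in neutered dogs, and 1 to 51 with each library left out. Of the 17 genes, 15 also passed with quantile normalization and 17 with median-of-ratios scaling. Rising and falling genes at an unadjusted p under 0.05 numbered 475 and 502 with a space and 408 and 386 with a hyphen. The variance share was 8.83% at a mean of at least 5 FPKM and 7.34% to 10.03% with each library left out. Abundant genes numbered 150 higher and 209 lower with quantile normalization, and 46 to 101 and 268 to 380 with each library left out. T-cell libraries gave 0 to 688 genes and the test of slopes 375 to 1159. No named gene turned its direction in any alternative. These genes were picked from the same libraries for a small p or a passing slope, so their stable direction is no separate support. Where no cause is stated, the cause was not tested. Since the number of fragments is unknown, values near 0 FPKM have no stated precision.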
